A study of Homo sapiens with 33 samples.

Results

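OVCAR4 ResB is a cisplatin-resistant derivative of OVCAR4, an established human cell line of high-grade serous ovarian carcinoma, and its 3 mRNA sequencing libraries were compared here with the 3 libraries of the parental line. These 6 libraries were taken by line name from a series of 33 libraries of 11 ovarian carcinoma lines with 3 replicates each. ResB was derived by short pulses of cisplatin of rising dose over months, each followed by recovery, and it is one of a pair of resistant OVCAR4 lines selected independently of each other. The second is OVCAR4 ResA. The resistant cells were not kept in cisplatin, and the parental line was grown in an insulin-supplemented medium. It was not stated in the sources used here whether ResB is a single clone, nor whether the replicates came from separate cultures, so that p-values measure only the spread between these libraries. ResB is 1 selected line, and what came from the drug and what came from months of passage cannot be told apart.

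Cisplatin crosslinks DNA, and cells that survive it can differ from their parents in uptake and export of the drug, in its detoxification by thiols and metallothioneins, in repair of crosslinked DNA, in the threshold for apoptosis, and in cell identity. High-grade serous carcinoma arises from epithelium of the Müllerian tract, where PAX8, EMX2 and the HOXA cluster set regional identity, and where Notch, WNT and TGF-β signalling govern the balance between secretory epithelium, stem-like cells and mesenchymal traits. The comparison asked which of these programmes differed between the resistant and the parental cells.

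Most markers of the labelled identity were expressed in both lines. The summed level of 14 markers of high-grade serous carcinoma was 3041 to 3721 TPM in OVCAR4 and 2996 to 3560 TPM in ResB. By the test described below, 4 of the 14 were lower in ResB and 0 were higher. TPM is an abundance corrected for gene length and scaled to the same sum in each library, which allows levels of different genes to be compared. PAX8, the lineage factor, was at 53.9, 46.6 and 46.1 TPM in OVCAR4 and 71.8, 74.1 and 77.7 TPM in ResB, but did not pass that test. WT1 was under 1 TPM in all 6 libraries. Of the defining markers of other cell types, 14 of 15 immune, 8 of 10 endothelial and 8 of 10 stromal genes were under 1 TPM in all 6 libraries, and the summed levels in OVCAR4 and ResB were 2.7-3.4 and 5.79-12 TPM for the immune list, 4.96-7.51 and 10.4-12.4 TPM for the endothelial list and 4.02-5.23 and 5.33-6.89 TPM for the stromal list.

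The libraries held 22640757 to 32020177 counts in OVCAR4 and 22295034 to 35792962 in ResB. Mitochondrial rRNA took 5.18%, 14.8% and 12% of counts in the OVCAR4 libraries and 13.1%, 2.47% and 2.39% in the ResB libraries, which gives 10.6% ± 4.94 against 5.98% ± 6.15 (SD, n = 3 each; exact two-sided permutation p = 0.3, where 0.1 is the smallest possible). ResB replicate 1 stood apart from the other ResB libraries. Its nearest library was ResA replicate 1 (Pearson r = 0.942 across genes), and it reached an r of 0.894 and 0.903 with ResB replicates 3 and 2, which had an r of 0.995 with each other.

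In all, 2853 of 15968 genes tested (17.9%) differed between ResB and OVCAR4 at an adjusted p under 0.05 (DESeq2 Wald test, Benjamini-Hochberg), 1452 (9.09%) of them higher and 1401 (8.77%) lower in ResB. In TPM, limma called 184 genes higher and 92 lower. The median of the 13038 genes it tested, with a mean TPM of at least 1, moved by 0.48 on the log2 scale. Because the libraries of each line varied, genes are favoured below whose 3 ResB libraries all lay above or all lay below the 3 OVCAR4 libraries, both in normalised counts and in TPM. Of the called genes, 2484 (15.6% of those tested) met this, 1408 (8.82%) higher and 1076 (6.74%) lower. These are the background for counts of called members without overlap. For members called with or without overlap, as in most list counts below, the background is 17.9% called, 9.09% higher and 8.77% lower. Whether called or not, 20.7% of genes lay wholly higher and 8.51% wholly lower in ResB on both scales, and 42% were separate in normalised counts. The number of calls depended on which libraries entered: it was 7241 without the libraries numbered 1, 764 without those numbered 2 and 631 without those numbered 3. Of 128 genes singled out by size of change or by gene list, 51 were called under each of 16 settings of the count tests that were planned. Where a gene described below lost its call without one replicate number, the adjusted p or its range is given with it. For each gene list, the share of tested members called, their median log2 fold change and the number called without the libraries numbered 1, 2 and 3 in turn are given beside its counts, against a median of -0.01 over all genes. In bulk RNA, a loss in every cell and a smaller share of expressing cells cannot be told apart.

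The largest losses were near complete. MYL9, the regulatory light chain of non-muscle and smooth muscle myosin (chr20:36541519-36551447, GRCh38.p14), was at 260.1, 299 and 267 TPM in OVCAR4 and had no count in any ResB library. Its level was at least 2069-fold lower in ResB than in OVCAR4, computed against a floor of 3 counts (adjusted p = 1.77e-31). ResA kept 31.7, 33 and 38.6 TPM of MYL9, so the gene was also at least 176-fold lower in ResB than in ResA (adjusted p = 2.56e-11).

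EMX2, a homeobox transcription factor of the developing urogenital tract, was at 67.4, 88.8 and 80.9 TPM in OVCAR4 and at 0.0298, 0 and 0 TPM in ResB, at least 1669-fold lower (adjusted p = 1.24e-25). Its antisense neighbour EMX2OS (chr10:117484293-117545068), whose gene overlaps the start of EMX2, was lost with it: 47.8, 25.9 and 29.4 TPM became 0.0215, 0.00809 and 0 TPM, at least 1797-fold lower (adjusted p = 4.11e-40). Both genes were expressed in ResA, EMX2 at 47.8 to 77.4 TPM and EMX2OS at 17.4 to 19.5 TPM. Use of strand in the counting was not stated, so reads from the overlapping stretch could have been given to either gene. The 250 bases before the listed start of EMX2 are shown because the whole locus was silent in ResB alone among these 3 lines. Capitals mark matches, on either strand, to the CCAAT box and to the GC box GGGCGG, which were found in 33% and 42.3% of 27305 promoters of the same length. The sequences here and below are from RefSeq, build GRCh38.p14, written 5′ to 3′ on the strand of the gene.
EMX2 (chr10:117542496-117542745, plus strand): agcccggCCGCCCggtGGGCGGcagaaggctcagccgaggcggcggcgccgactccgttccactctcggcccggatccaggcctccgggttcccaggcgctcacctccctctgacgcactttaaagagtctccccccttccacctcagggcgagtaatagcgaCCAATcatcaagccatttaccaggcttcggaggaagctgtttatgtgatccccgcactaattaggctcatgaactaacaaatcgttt

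The other genes with near-complete loss came from several families. FBN2, a fibrillin of extracellular microfibrils, fell from 45.9, 30 and 33 TPM to 0.00725, 0.00545 and 0.00516 TPM, at least 2850-fold (adjusted p = 5.71e-45). SEMA6A, a transmembrane semaphorin, fell from 8.48, 6.97 and 7.51 TPM to 0.0118, 0 and 0 TPM, at least 384-fold (adjusted p = 1.94e-18), and was equally absent from ResA (0.00914 to 0.0461 TPM). CLDN10, a tight-junction claudin, fell from 18.6, 23 and 26.4 TPM to 0, 0.0496 and 0.0234 TPM, at least 409.7-fold (adjusted p = 2.9e-27). None of these groups overlapped. ResA held intermediate levels of FBN2 (1.05 to 1.63 TPM) and CLDN10 (5.87 to 6.47 TPM).

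SOX2, a transcription factor of pluripotent and progenitor cells, was at 7.26, 14.6 and 11.5 TPM in OVCAR4 and at 0.0323, 0 and 0 TPM in ResB, at least 207-fold lower (adjusted p = 9.88e-16). A further group had counts in every OVCAR4 library and none in any ResB library. It comprised NPAS3, a neuronal bHLH-PAS factor (7.11 to 8.59 TPM in OVCAR4), VEGFC, the lymphangiogenic growth factor (4.95 to 9.09 TPM), HPGD, which inactivates prostaglandins (3.8 to 9.21 TPM), THSD7B (2.58 to 4.79 TPM) and the glypican GPC6 (1.4 to 4.09 TPM). The calls of these 5 genes were lost without the libraries numbered 2 or 3, where the adjusted p was 0.0638 and 0.071 for NPAS3, 0.103 and 0.139 for VEGFC, 0.105 and 0.122 for HPGD, 0.0767 and 0.101 for THSD7B and 0.107 and 0.119 for GPC6. The absence itself held in each ResB library.

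**Figure D1:**
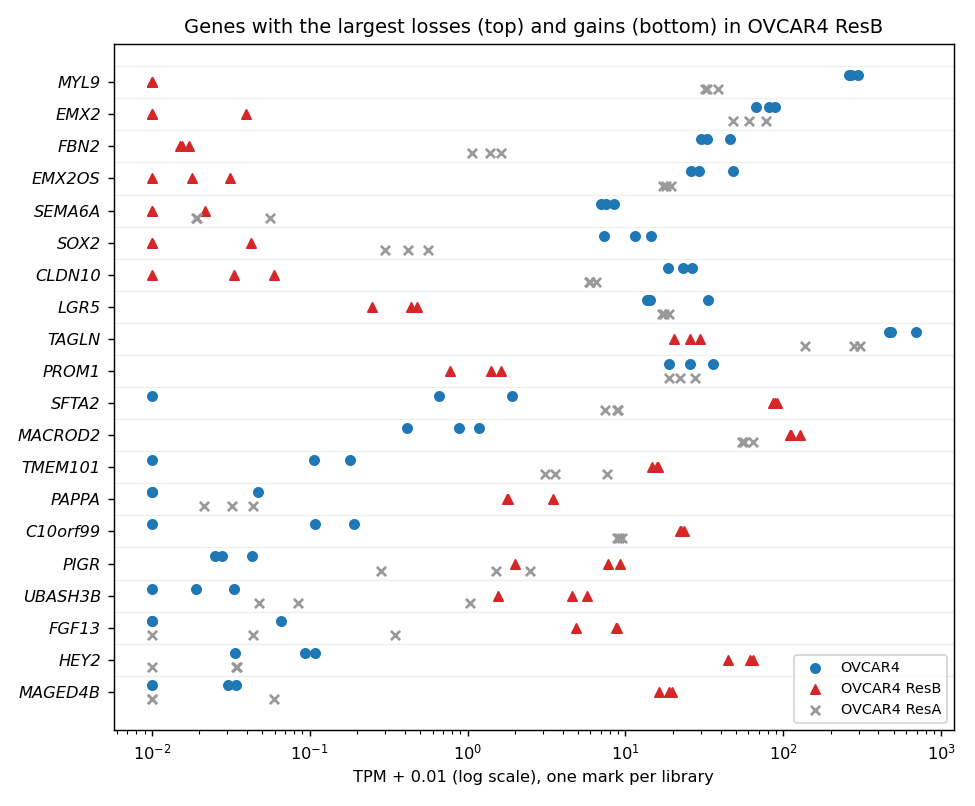
TPM (plus 0.01, log axis) of the 10 genes with the largest decrease and the 10 with the largest increase among genes called under every planned count setting, with one mark per library for OVCAR4, ResB and ResA. The ResB marks of MYL9 lie at the left edge, where a value of 0 is drawn, and those of HEY2 lie between 44.7 and 64.6 TPM, far from both other lines.

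The largest gains were switches of the same kind in the opposite direction. HEY2, a transcriptional repressor of the Notch pathway, was at 0.0986, 0.0832 and 0.0239 TPM in OVCAR4 and at 44.7, 64.6 and 61.3 TPM in ResB (log2 fold change 9.19 ± 0.61 SE, adjusted p = 8.75e-49). It was off in ResA (0.0242, 0 and 0.0245 TPM), at least 767-fold below ResB (adjusted p = 6.25e-28). MAGED4B, an X-linked MAGE-family gene, was at 0.0205, 0 and 0.0242 TPM in OVCAR4 and at 16.4, 18.9 and 19.8 TPM in ResB, at least 168-fold higher (adjusted p = 6.63e-17), and at 0 to 0.0496 TPM in ResA. MAGED4, its near-identical copy, had 0 counts in the ResB libraries and 0 or 1 in those of OVCAR4, and how the quantification divided reads between the copies was not tested.

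FGF13, an intracellular fibroblast growth factor homologue on the X chromosome, rose from 0.0556, 0 and 0 TPM to 4.86, 8.65 and 8.84 TPM, at least 55.1-fold (adjusted p = 3.26e-10). KLF8, an X-linked zinc finger factor chosen after its values were seen, rose from 0.0615-0.128 TPM to 4.98-8.49 TPM (log2 fold change 5.96 ± 0.56, adjusted p = 1.1e-23). Neither gene was on in ResA, where FGF13 was at 0 to 0.338 TPM and KLF8 at 0.141 to 0.23 TPM. UBASH3B, a phosphatase that damps receptor tyrosine kinase signalling, rose at least 92.4-fold to 1.55, 4.56 and 5.7 TPM (adjusted p = 2.3e-14). PAPPA, a protease that releases insulin-like growth factor from its binding proteins, rose from 0.0368, 0 and 0 TPM to 3.47, 1.76 and 1.79 TPM (log2 fold change 7.42 ± 0.86, adjusted p = 1.1e-15) and stayed at or under 0.0335 TPM in ResA.

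A second set of gains was shared in kind with ResA but larger in ResB. MACROD2, an ADP-ribosylhydrolase gene spanning a common fragile site (chr20:13995516-16053197), rose from 1.18, 0.868 and 0.402 TPM to 110.2, 112 and 127 TPM (log2 fold change 6.64 ± 0.38, adjusted p = 6.15e-64), with 54.6 to 64.6 TPM in ResA. SFTA2, a surfactant-associated gene of the HLA region, rose from 0.65, 1.91 and 0 TPM to 85.8, 88.7 and 90.6 TPM (log2 fold change 6.5 ± 0.78, adjusted p = 1.3e-14), with 7.4 to 9.01 TPM in ResA. The ResB level exceeded that of ResA by 0.96 ± 0.09 for MACROD2 (adjusted p = 2.42e-23) and by 3.33 ± 0.24 for SFTA2 (adjusted p = 1.66e-41) on the log2 scale.

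PIGR, the receptor that carries IgA across epithelium, rose at least 91.2-fold to 1.98, 7.72 and 9.27 TPM (adjusted p = 6.65e-17). C10orf99, now named GPR15LG and encoding a secreted chemoattractant, rose at least 55.4-fold to 23.6, 22.4 and 22.1 TPM (adjusted p = 1.76e-12). TMEM101 rose from 0, 0.0973 and 0.169 TPM to 15.8, 16 and 14.7 TPM (log2 fold change 7.19 ± 0.83, adjusted p = 8.32e-16). In ResA they were at 0.274 to 2.47, 8.88 to 9.53 and 3.1 to 7.67 TPM, and the PIGR libraries of ResA and ResB overlapped. PNMA2, a paraneoplastic antigen, rose to 1.5, 4.79 and 6.07 TPM from 0, 0.0436 and 0 TPM, a call lost without the libraries numbered 2 (adjusted p = 0.148). CACNA1A, the pore subunit of a neuronal calcium channel, had the largest fitted increase of the named genes, but its ResB libraries were at 10.2, 2.16 and 1.05 TPM, and the call was lost without the libraries numbered 2 (0.122) or 3 (0.103).

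Among transcription factors of the Müllerian and urogenital tract, 2 of 17 tested were higher and 5 were lower in ResB (41.2% called, median -0.20; 9, 3 and 2 with one number left out). NR2F1, an orphan nuclear receptor, was at 1.76, 1.72 and 1.46 TPM in OVCAR4 and at 0 in all ResB libraries, at least 38.1-fold lower, although the call was lost without the libraries numbered 3 (adjusted p = 0.247). The antisense gene NR2F1-AS1 fell from 3.82, 4.36 and 4.4 TPM to 0 in the same libraries (0.171 and 0.197 without those numbered 2 or 3). NR2F2, the closest relative of NR2F1, was at 8 to 11.9 TPM in OVCAR4 and 16.3 to 45.2 TPM in ResB and did not pass the test.

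Of the HOXA genes, 3 were called lower and 1 higher. HOXA10, which specifies the uterus in the Müllerian duct, fell from 7.46, 7 and 6.78 TPM to 3.29, 1.62 and 2.23 TPM (log2 fold change -2.14 ± 0.47, adjusted p = 8.79e-05). HOXA11 fell from 1.03-1.51 to 0.533-0.701 TPM (adjusted p = 0.0359), and HOXA9 was called lower (adjusted p = 0.00882) with overlapping libraries (3.38 to 5.5 against 0.632 to 4.84 TPM). HOXA13, the most posterior gene, rose from 0.0575-0.126 TPM to 0.355-1.92 TPM (log2 fold change 2.78 ± 0.89, adjusted p = 0.0139). None of these 4 calls held without the libraries numbered 2 or 3 (adjusted p from 0.0705 to 0.658).

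The Notch pathway combined a single large gain with losses. In this pathway JAG and DLL ligands activate NOTCH receptors, whose cleaved intracellular part binds RBPJ and switches on the repressors of the HES and HEY families and the feedback inhibitor NRARP. Of 20 genes tested, 1 was higher and 9 were lower (50% called; 13, 5 and 5 with one number left out), and 7 of the 9 did not overlap between the lines. The median log2 fold change of the list was -0.76 in counts and -0.30 in TPM. The corresponding medians were -0.01 over all genes tested and 0.48 over genes with a mean TPM of at least 1.

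On the signalling side, the receptor NOTCH3 was at 21.1, 20.9 and 20 TPM in OVCAR4 and at 5.24, 7.76 and 7.36 TPM in ResB (log2 fold change -2.19 ± 0.30, adjusted p = 1.88e-11). The ligand JAG2 was at 11.4, 9.94 and 8.65 TPM in OVCAR4 and at 3.07, 3.2 and 3.09 TPM in ResB (-2.22 ± 0.33, adjusted p = 1e-09). Both were separate between the lines and called under every planned count setting. JAG1 was called lower (-1.0 ± 0.31), but its libraries overlapped (26.3 to 70.6 against 28.3 to 31.6 TPM) and the call was lost without the libraries numbered 2 (0.15) or 3 (0.534). NOTCH1, NOTCH2, DLL1 and RBPJ did not pass the test, and RBPJ, the DNA-binding partner, was at 16.9 to 20.8 TPM in OVCAR4 and 27.2 to 31.2 TPM in ResB.

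Among the targets, NRARP fell from 12.8, 8.52 and 12.7 TPM to 2.47, 3.66 and 3.39 TPM (log2 fold change -2.40 ± 0.35, adjusted p = 7.89e-10), a call that held under every planned count setting. HES2 fell from 1.85-2.97 to 0.577-1.29 TPM, HES4 from 12.3-19.3 to 5.32-11.7 TPM, HEY1 from 1.02-1.88 to 0.107-0.732 TPM and HEYL from 0.206-0.615 to 0-0.122 TPM. The libraries of these 4 genes did not overlap, but each gene lost its call without at least 1 replicate number (largest adjusted p of 0.199, 0.498, 0.333 and 0.252). HES1 was called lower (-1.93 ± 0.69, adjusted p = 0.0346), yet its libraries overlapped widely, at 66.8, 159.5 and 222 TPM in OVCAR4 and 161, 39.7 and 36.8 TPM in ResB, and the call was lost without the libraries numbered 2 (0.647) or 3 (0.842). Of the 3 HEY genes, HEY2 rose and HEY1 and HEYL fell.

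**Figure D2:**
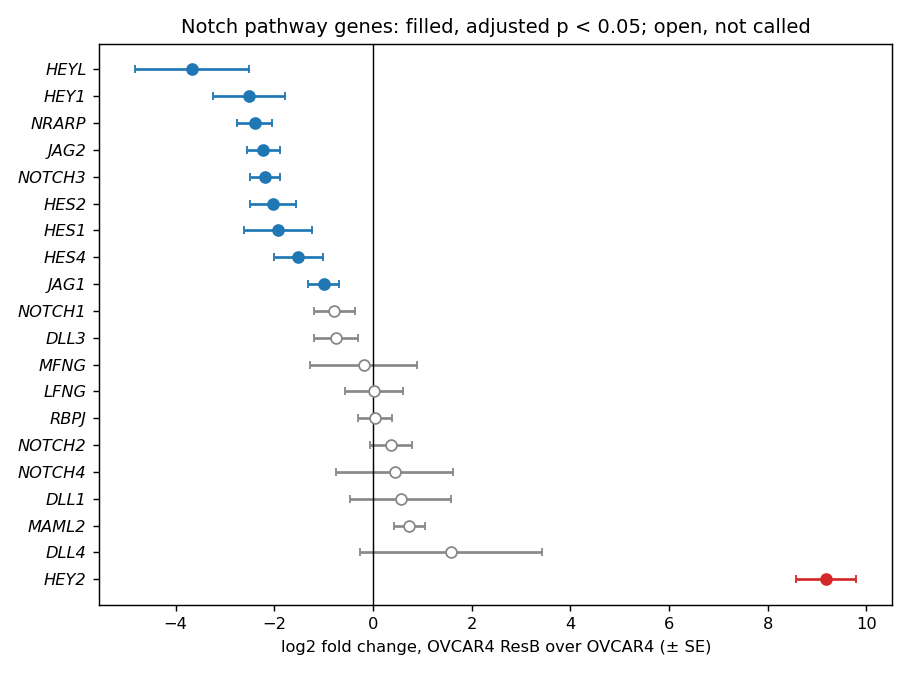
Log2 fold change (ResB over OVCAR4, points, with SE as bars) of the 20 Notch pathway genes tested, filled where the adjusted p was under 0.05. HEY2 lies at 9.19 and the 9 genes called lower lie between -3.67 (HEYL) and -1.0 (JAG1).

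The promoters of 3 HES and HEY genes and of NRARP are shown because these targets moved in opposite directions. Capitals mark matches on either strand to the core bound by RBPJ (GTGGGAA), to the CCAAT box, to the GC box described for EMX2 and to the TATA box (TATAAA). The RBPJ core occurred in 5.46% of all promoters of this length and the TATA box in 11.1%. The core was found in HEY2, which rose, at -213 to -207 bases from the start, in HEYL, which fell, at -178 to -172, and in HES1 at -85 to -79. Its letters were not in the window of NRARP, which fell. A match describes the sequence and does not show binding.
HEY2 (chr6:125749382-125749631, plus strand): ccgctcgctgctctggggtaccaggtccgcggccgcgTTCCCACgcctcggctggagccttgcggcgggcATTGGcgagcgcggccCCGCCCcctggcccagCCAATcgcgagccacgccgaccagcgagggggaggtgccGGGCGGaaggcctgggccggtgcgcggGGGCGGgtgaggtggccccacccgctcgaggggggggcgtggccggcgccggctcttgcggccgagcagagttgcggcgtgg
HES1 (chr3:194135898-194136147, plus strand): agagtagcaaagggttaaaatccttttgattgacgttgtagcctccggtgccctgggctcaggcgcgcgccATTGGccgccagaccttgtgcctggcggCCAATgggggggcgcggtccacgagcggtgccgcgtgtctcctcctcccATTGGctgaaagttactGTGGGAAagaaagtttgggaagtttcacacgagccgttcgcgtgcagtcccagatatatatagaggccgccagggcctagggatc
HEYL (chr1:39639644-39639893, minus strand): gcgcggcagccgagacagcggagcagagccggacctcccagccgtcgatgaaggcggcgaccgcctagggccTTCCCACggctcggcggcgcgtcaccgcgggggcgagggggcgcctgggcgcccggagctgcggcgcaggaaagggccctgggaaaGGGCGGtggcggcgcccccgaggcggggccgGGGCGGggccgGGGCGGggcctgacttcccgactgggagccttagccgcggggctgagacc
NRARP (chr9:137302272-137302521, minus strand): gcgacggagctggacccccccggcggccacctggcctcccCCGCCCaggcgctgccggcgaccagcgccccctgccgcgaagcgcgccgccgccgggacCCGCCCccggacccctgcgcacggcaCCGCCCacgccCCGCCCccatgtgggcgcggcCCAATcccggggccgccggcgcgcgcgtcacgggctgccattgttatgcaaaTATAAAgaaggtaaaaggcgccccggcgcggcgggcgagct

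Contractile and cytoskeletal genes were changed in both directions, with 3 of 18 tested higher and 3 lower (33.3% called, median -0.46; 10, 3 and 3 with one number left out). TAGLN, the actin-bundling protein transgelin and a target of serum response factor, fell from 690.3, 482 and 468 TPM to 20.4, 25.5 and 29.7 TPM (log2 fold change -5.00 ± 0.30, adjusted p = 1.35e-59), while ResA kept 138 to 305 TPM. MYLK, the kinase that phosphorylates the lost light chain MYL9, moved the other way, from 7.17, 6.8 and 5.78 TPM to 72.3, 39.2 and 51.9 TPM (3.11 ± 0.32, adjusted p = 1.7e-20). MYL9, TAGLN and MYLK were each called under every planned count setting. CNN1, calponin, rose from 0.0878-0.189 to 1.34-1.64 TPM and filamin FLNA from 45.2-82.6 to 94.5-469 TPM, while tropomyosin TPM1 fell from 254-499 to 193-250.1 TPM. These 3 calls were lost without the libraries numbered 2 (adjusted p of 0.278, 0.206 and 0.094) or 3 (0.538, 0.469 and 0.264), and that of CNN1 also without those numbered 1 (0.0582). The smooth muscle actin ACTA2 was low in both lines, at 2.64 to 4.91 and 2.51 to 3.99 TPM.

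RHOB, a small GTPase of actin and endosomes, rose from 40, 25 and 37.3 TPM to 259, 275 and 380.2 TPM (2.60 ± 0.29, adjusted p = 4.55e-17). MSN, the membrane-actin linker moesin, rose from 92.6-99.8 to 328-540.2 TPM (1.60 ± 0.29, adjusted p = 1.78e-06; 0.0568 without the libraries numbered 3). Of 18 Hippo and YAP genes tested, 4 were higher and 2 lower (33.3% called, median -0.18; 11, 2 and 2 with one number left out). AMOTL2, a junctional inhibitor and target of YAP, rose from 62.7, 46.8 and 51.4 TPM to 186, 364 and 389.5 TPM (1.92 ± 0.30, adjusted p = 1.53e-08). ANKRD1, a YAP target in muscle and epithelium, rose from 62.2, 26.2 and 40.5 TPM to 431, 148 and 127 TPM, and CYR61, the matricellular protein now named CCN1, from 440.4, 328 and 569.7 TPM to 1837, 1358 and 1631 TPM. CYR61 had the largest gain in mean TPM of all named genes, 446 ± 121 against 1608 ± 240.1 (SD, n = 3 each), but its call was lost without the libraries numbered 2 (adjusted p = 0.109) or 3 (0.0553). CTGF, its paralog, did not pass the test (137 to 306 against 270.3 to 319 TPM), nor did YAP1.

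Genes of antigen presentation were higher in ResB and none was lower. Of 18 tested, 9 were called (50%; 13, 3 and 2 with one number left out) and all 9 were separate between the lines, and the list median was 1.24 in counts and 1.37 in TPM on the log2 scale. HLA-B, a class I heavy chain, was at 25.6, 16.9 and 17.8 TPM in OVCAR4 and at 84.9, 199.6 and 189 TPM in ResB (2.33 ± 0.34, adjusted p = 7.67e-10), and this call held under every planned count setting. HLA-C rose from 38.2-53.5 to 92-182 TPM, and NLRC5, the transactivator of class I genes, from 0.29-0.619 to 1.92-3.37 TPM, with the calls lost without the libraries numbered 3 (0.441 and 0.0769). B2M, the light chain of class I molecules, was also separate in TPM (466 to 876 against 999 to 1894 TPM) but did not pass the test.

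The immunoproteasome subunits PSMB9 and PSMB8 and the peptide transporter subunit TAP1 also rose. PSMB9 rose from 0.664, 0.448 and 0.521 TPM to 5.48, 5.39 and 3.26 TPM (2.53 ± 0.68, adjusted p = 0.00257), PSMB8 from 5.49-8.52 to 25-31 TPM (1.53 ± 0.35, adjusted p = 0.000237) and TAP1 from 1.24-2.63 to 3.69-7.92 TPM (1.34 ± 0.45, adjusted p = 0.0206). Without the libraries numbered 2 these calls were lost (0.228, 0.128 and 0.499), as was that of HLA-C (0.233). The calls of PSMB9, PSMB8 and TAP1 were also lost without those numbered 3 (0.118, 0.151 and 0.606). TAP2, the other transporter subunit, and PSMB10 did not pass the test (adjusted p = 0.577 and 0.844). The class II pair HLA-DPA1 and HLA-DPB1, usually restricted to antigen-presenting cells, had no count in any OVCAR4 library. HLA-DPB1 was at 5.04, 8.09 and 6.51 TPM in ResB, at least 23.7-fold higher (adjusted p = 7.66e-09; 0.0726 without the libraries numbered 1), and HLA-DPA1 at 0.497 to 0.899 TPM, at least 3.97-fold higher (0.247 and 0.229 without the libraries numbered 2 or 3). Both were also at or near 0 in ResA (0 to 0.0609 TPM). CIITA, the class II transactivator, was at 0.0486 to 0.228 TPM in ResB and did not pass the test. The immune markers CD3E, CD14, LYZ and NKG7 were under 1 TPM in all libraries. HLA genes are near-identical to one another in parts, so that reads may be divided between them.

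TAP1 and PSMB9 lie head to head, with starts 488 bases apart, and both rose. The 250 bases before TAP1, which lie within that interval, are shown for this reason. Capitals mark an NF-kB site at -72 to -63 bases from the start (in 5.05% of promoters), the core repeat of the interferon-stimulated response element in overlapping copies at -134 to -125 and -128 to -119 (3.07%), CCAAT and GGGCGG, on either strand.
TAP1 (chr6:32853705-32853954, minus strand): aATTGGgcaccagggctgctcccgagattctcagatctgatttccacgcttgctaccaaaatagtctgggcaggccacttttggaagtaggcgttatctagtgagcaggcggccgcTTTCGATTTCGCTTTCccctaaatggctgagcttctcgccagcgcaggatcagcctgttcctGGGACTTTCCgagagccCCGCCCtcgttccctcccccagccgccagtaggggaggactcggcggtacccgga

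Inflammatory genes of the NF-kB and IL6 family were more often higher, 8 of 23 tested, than lower, 3 of 23 (47.8% called, median 0.58; 15, 2 and 2 with one number left out). IL6 rose from 0.663, 1.11 and 1.02 TPM to 21.6, 12.9 and 24.8 TPM (3.82 ± 0.55, adjusted p = 1.98e-10), with 4.61 to 5.73 TPM in ResA, and was higher in ResB than in ResA (1.90 ± 0.32, adjusted p = 5.59e-08). Its receptor chain IL6R rose from 1.3-1.72 to 4.35-5.52 TPM, and SOCS3, the feedback inhibitor of STAT3, from 17.5, 21.9 and 22.5 TPM to 75.9, 67.6 and 65.6 TPM (1.19 ± 0.39, adjusted p = 0.0197). STAT3 itself did not pass the test (30.8 to 35.2 against 56 to 106 TPM, adjusted p = 0.0827). TNFAIP3 rose from 4.91, 2.4 and 3.22 TPM to 14.9, 14.9 and 15.2 TPM (1.62 ± 0.32, adjusted p = 9.86e-06), and BIRC3 from 0.927-1.64 to 4.53-4.6 TPM. IL1B rose from 0.0501-0.221 to 2.03-2.61 TPM. The calls of IL6R, SOCS3, TNFAIP3, BIRC3 and IL1B were lost without the libraries numbered 2 or 3 (adjusted p from 0.0546 to 0.431), whereas that of IL6 held. Of the list's chemokines, CXCL5 fell from 3.71-6.46 to 1.31-1.59 TPM (-2.28 ± 0.40, adjusted p = 6.43e-07) and CXCL3 from 1.6-1.97 to 0.35-0.751 TPM (adjusted p = 0.0266; 0.563 and 0.556 without the libraries numbered 2 or 3), whereas CXCL1, CXCL2, CCL2 and CCL20 did not pass the test (adjusted p from 0.376 to 0.762).

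Interferon-stimulated genes did not move as a block, with 5 of 24 tested higher and 5 lower (41.7% called, median 0.69; 14, 3 and 2 with one number left out). MX2, an antiviral GTPase, fell from 1.77, 1.36 and 1.25 TPM to 0 in all 3 ResB libraries, at least 31.5-fold (adjusted p = 1.18e-09). IFIH1, the RNA sensor MDA5, fell from 1.34-2.34 to 0.554-1.14 TPM. OAS3 rose from 0.00913-0.0768 to 0.537-1.26 TPM (4.20 ± 0.85, adjusted p = 1.8e-05) and IFIT3 from 3.67-5.08 to 13.7-20.1 TPM (1.33 ± 0.33, adjusted p = 0.000999). The calls of IFIH1 and IFIT3 were lost without the libraries numbered 2 (0.127 and 0.14) or 3 (0.333 and 0.304), and that of OAS3 without those numbered 3 (0.0746). ISG15 did not pass the test. APOL1, an innate immunity gene outside the list and chosen after its values were seen, was at 2.72, 1.98 and 1.52 TPM in OVCAR4 and at 181, 186 and 205 TPM in ResB (5.80 ± 0.33, adjusted p = 2.75e-64), with 128 to 189 TPM in ResA.

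Extracellular matrix genes changed in composition, with 5 of 19 collagens and laminins higher and 3 lower (42.1% called, median -0.07; 11, 5 and 5 with one number left out). The basement membrane collagen COL4A1 rose from 60.8, 47.6 and 46.4 TPM to 257, 398 and 447 TPM (2.24 ± 0.29, adjusted p = 2.04e-12). COL6A1 rose from 0.513, 0.903 and 0.417 TPM to 6.72, 8.04 and 7 TPM (3.08 ± 0.44, adjusted p = 2.1e-10), and COL6A2, its partner chain, from 0.688-1.2 to 9.34-17.2 TPM (3.38 ± 0.40, adjusted p = 3.04e-15). Of the laminin alpha chains, LAMA3 of epithelial laminin fell from 527, 323 and 379 TPM to 50, 105 and 125 TPM (-2.71 ± 0.34, adjusted p = 4.1e-13) and LAMA1 from 3.84-8.24 to 0.363-0.712 TPM (-3.73 ± 0.39, adjusted p = 2.55e-19). LAMA5 did not pass the test (20.1 to 29.4 against 18.8 to 33.4 TPM, adjusted p = 0.436). COL4A1, COL6A1, COL6A2, LAMA3 and LAMA1 were each called under every planned count setting. LAMA1 was also below ResA, which had 6.99 to 15.4 TPM (-4.47 ± 0.17 for ResB over ResA, adjusted p = 4.11e-147).

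COL4A2, which shares its promoter region with COL4A1 on the opposite strand, rose from 66-81.5 to 137-343 TPM (1.21 ± 0.32, adjusted p = 0.00199; 0.19 and 0.389 without the libraries numbered 2 or 3). The starts of the pair are 127 bases apart.

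Mesenchymal genes gave 3 higher and 2 lower of 13 tested (38.5% called; 5, 3 and 3 with one number left out), and the list median of 0.03 was near that of all genes. TGFBI, a matrix protein induced by TGF-β, had no count in OVCAR4 and was at 1.27, 2.97 and 3.3 TPM in ResB, at least 23.8-fold higher (adjusted p = 9.22e-09; 0.0642 without the libraries numbered 1). Fibronectin FN1 fell from 1.04, 0.519 and 0.403 TPM to 0.01, 0.0248 and 0 TPM, at least 36.7-fold (adjusted p = 1.81e-09). VIM, the mesenchymal filament protein, did not pass the test (adjusted p = 0.929) and was at 41.8 to 48.1 and 57.7 to 74.3 TPM.

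Epithelial junction and identity genes gave 2 higher and 6 lower of 24 tested (33.3% called, median -0.33; 16, 1 and 1 with one number left out). KRT19, a simple-epithelial keratin, fell from 261, 294 and 279 TPM to 49, 57.6 and 53 TPM (-2.96 ± 0.34, adjusted p = 1.75e-16), against 582 to 606 TPM in ResA (-3.52 ± 0.08 for ResB over ResA). FOLR1, the folate receptor used as a marker of serous carcinoma, fell from 46.2, 70.4 and 79.8 TPM to 9.66, 19.8 and 19.3 TPM (-2.64 ± 0.33, adjusted p = 3.43e-13). MUC1 fell from 7.23-12.9 to 2.86-3.81 TPM, MUC16, which carries the CA125 epitope, from 10.4-13.3 to 4.54-8.2 TPM, and EPCAM from 639.9-711 to 502-575 TPM, with all 3 calls lost without the libraries numbered 2 (0.11, 0.326 and 0.596) or 3 (0.143, 0.595 and 0.656). E-cadherin CDH1 did not pass the test (39.5 to 39.8 against 54 to 134 TPM, adjusted p = 0.106), nor did KRT7 or KRT8. In the direct comparison with ResA, 16 members of the list were lower in ResB and 0 were higher, beside a background of 16.5% and 16.2% of all genes.

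WNT pathway genes gave 8 higher and 2 lower of 26 tested (38.5% called, median 0.79; 15, 4 and 5 with one number left out). SFRP1, a secreted WNT antagonist, rose from 0.91, 0.442 and 0.461 TPM to 21.7, 42.6 and 42.2 TPM (5.31 ± 0.39, adjusted p = 3.61e-39), the receptor FZD1 from 0.13-0.284 to 3.61-6.39 TPM (4.32 ± 0.48, adjusted p = 8.51e-17) and NKD1, a feedback inhibitor, from 0.0273-0.14 to 1.17-2.57 TPM (4.27 ± 0.59, adjusted p = 4.08e-11). All 3 were higher in ResB than in ResA, by 3.54 ± 0.56, 3.24 ± 0.40 and 4.13 ± 0.43 on the log2 scale. AXIN2, another feedback inhibitor and a direct target of β-catenin, rose from 0.574-1.71 to 3.07-6.51 TPM (1.52 ± 0.49, adjusted p = 0.0154; 0.563 and 0.0776 without the libraries numbered 2 or 3). LGR5, the R-spondin receptor that marks epithelial stem cells, fell from 33.2, 13.7 and 14.3 TPM to 0.429, 0.465 and 0.24 TPM (-6.24 ± 0.39, adjusted p = 7.99e-56), while ResA kept 17.1 to 18.8 TPM.

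In the TGF-β and BMP pathway, 9 of 28 genes tested were higher and 4 lower (46.4% called, median 0.43; 16, 7 and 7 with one number left out). The receptor TGFBR2 rose from 18.4, 5.25 and 7.83 TPM to 33.5, 142 and 157 TPM (2.82 ± 0.54, adjusted p = 5.46e-06) and TGFBR1 from 3.8-7.68 to 13.9-21.5 TPM (1.24 ± 0.33, adjusted p = 0.00253; 0.167 and 0.441 without the libraries numbered 2 or 3). Among ligands, INHBB, an activin subunit, rose from 3.42, 3.03 and 2.59 TPM to 30.8, 20.3 and 18.6 TPM (2.35 ± 0.40, adjusted p = 1.21e-07), and BMP4 rose at least 17.8-fold to 4.18, 2.54 and 1.7 TPM (adjusted p = 7.8e-07; 0.126 without the libraries numbered 1). GREM1, a secreted BMP antagonist, rose from 0.158, 0 and 0.0155 TPM to 2.98, 6.33 and 6.29 TPM (6.49 ± 0.88, adjusted p = 1.45e-11). The BMP receptor BMPR1B fell from 1.36-2.83 to 0.467-0.651 TPM (-2.40 ± 0.43, adjusted p = 9.96e-07) and LTBP1, which tethers latent TGF-β, from 7.49-13.9 to 1.68-4.12 TPM (-2.20 ± 0.40, adjusted p = 1.19e-06).

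Of 12 ERBB receptors and ligands tested, 1 was higher and 2 lower (25% called, median 0.08; 4, 2 and 2 with one number left out). ERBB4, a receptor of neuregulins, fell from 11.9, 6.82 and 6.95 TPM to 0.583, 0.637 and 0.485 TPM (-4.44 ± 0.32, adjusted p = 1.12e-40), with 8.33 to 15 TPM in ResA, and its ligand NRG1 from 9.64-19.9 to 2.94-5.76 TPM (-2.0 ± 0.40, adjusted p = 1.63e-05). NRG2, a further ligand, was at 0 in OVCAR4 and at 0.208 to 0.407 TPM in ResB, a call not kept without the libraries numbered 1 (0.187) or 2 (0.197). EGFR did not pass the test.

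Genes of platinum transport, metallothioneins and glutathione gave 5 higher and 3 lower of 30 tested (26.7% called, median 0.26; 16, 3 and 1 with one number left out). ABCC3, an organic anion exporter of the MRP family, was at 0.366, 0.395 and 0.473 TPM in OVCAR4 and at 7.82, 10.9 and 8.42 TPM in ResB (4.13 ± 0.44, adjusted p = 2.87e-18). Of the 8 called genes of the list, ABCC3 alone was called under every planned count setting, and it was higher in ResB than in ResA (1.37 to 2.23 TPM; 2.45 ± 0.22, adjusted p = 2.09e-27). The copper exporter ATP7A rose from 1.19, 1.03 and 0.758 TPM to 3.08, 7.27 and 7.26 TPM (2.06 ± 0.43, adjusted p = 4.28e-05; 0.112 without the libraries numbered 3), with 3.12 to 6.82 TPM in ResA, while ATP7B did not pass the test. MT1F, a metal-binding metallothionein, rose from 56.6, 61.5 and 53.7 TPM to 443, 231 and 186 TPM (1.57 ± 0.48, adjusted p = 0.00989; 0.0568 without the libraries numbered 3). The organic cation transporter SLC22A2, which imports cisplatin in kidney, rose at least 5.57-fold, to 0.565-0.678 TPM (0.125 and 0.181 without the libraries numbered 2 or 3). LRRC8D, a volume-regulated channel subunit through which platinum drugs enter cells, was lower, at 65.3 to 79.7 against 48.2 to 60.3 TPM (-0.93 ± 0.30, adjusted p = 0.0141; 0.403 and 0.541 without the libraries numbered 2 or 3). The copper importer SLC31A1 overlapped between the lines (13.2 to 23 against 10.7 to 37.7 TPM), and the exporter ABCB1 had 0 counts in all 6 libraries.

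DNA repair genes were called in 3 of 32 cases, all higher (9.38% called, median 0.41; 19, 0 and 0 with one number left out, beside a background of 17.9%). BRCA1, of homologous recombination, was at 6.21, 4.31 and 4.65 TPM in OVCAR4 and at 14.3, 24.9 and 26.9 TPM in ResB (1.84 ± 0.39, adjusted p = 5.08e-05). XPC, which recognises lesions for nucleotide excision repair, rose from 5.57-6.87 to 19.4-27.7 TPM (1.31 ± 0.32, adjusted p = 0.000556) and the helicase BRIP1 from 2.2-4 to 8.19-10.6 TPM (1.16 ± 0.31, adjusted p = 0.00222). None of these calls held without the libraries numbered 2 (0.0561, 0.0785 and 0.238) or 3 (0.0974, 0.24 and 0.36), although the libraries of the lines did not overlap. BRCA2 did not pass the test, and SLFN11, a sensitiser to platinum, had 0 to 3 counts in each of the 6 libraries.

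Apoptosis regulators gave 1 higher and 2 lower of 26 tested (11.5% called, median -0.07; 12, 0 and 0 with one number left out). BCL2, the anti-apoptotic protein, fell from 1.09-1.41 to 0.341-0.988 TPM (-1.75 ± 0.49, adjusted p = 0.00355), a call lost without the libraries numbered 2 (0.119) or 3 (0.327). Proliferation genes gave 2 higher and 1 lower of 26 tested (11.5% called, median 0.06; 17, 1 and 1 with one number left out). CCND1, cyclin D1, fell from 115, 76.6 and 74.9 TPM to 12.9, 13.5 and 20 TPM (-3.06 ± 0.32, adjusted p = 5.78e-20), while ResA had 125 to 255 TPM (-3.63 ± 0.15 for ResB over ResA). Cyclin E genes moved the other way, CCNE1 from 44.3-99.8 to 146-238 TPM (0.95 ± 0.34) and CCNE2 from 5.88-20.5 to 25.2-41.6 TPM (1.22 ± 0.41), with both calls lost without the libraries numbered 2 (0.638 and 0.532) or 3 (0.427 and 0.469). MKI67, the proliferation marker, did not pass the test (adjusted p = 0.163).

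Of 14 stemness markers tested, 8 were called (57.1%, median -0.04; 9, 6 and 6 with one number left out), with 3 higher and 5 lower. Besides SOX2 and LGR5, the aldehyde dehydrogenase ALDH1A1 fell from 1.46, 1.93 and 2.08 TPM to 0 in all ResB libraries, at least 31.3-fold (adjusted p = 1.79e-09), and PROM1, which encodes CD133, from 36, 18.9 and 25.5 TPM to 0.767, 1.4 and 1.62 TPM (-4.99 ± 0.36, adjusted p = 1.79e-40). ALDH1A1 and PROM1 were both expressed in ResA, at 5.23 to 7.02 and 18.8 to 27.7 TPM. CD44, the hyaluronan receptor, rose from 0.83, 0.24 and 0.33 TPM to 5.87, 7.01 and 9.2 TPM (3.56 ± 0.43, adjusted p = 1.91e-14) and CD24 from 226, 115 and 149 TPM to 308, 774 and 903 TPM (1.37 ± 0.39, adjusted p = 0.00396; 0.267 and 0.359 without the libraries numbered 2 or 3). POU5F1, which has pseudogene copies, rose from 0.831-0.939 to 5.64-17.8 TPM (2.51 ± 0.57, adjusted p = 0.000211), and its copy POU5F1B did not pass the test (0.174 to 0.244 against 0.462 to 0.666 TPM).

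**Figure D3:**
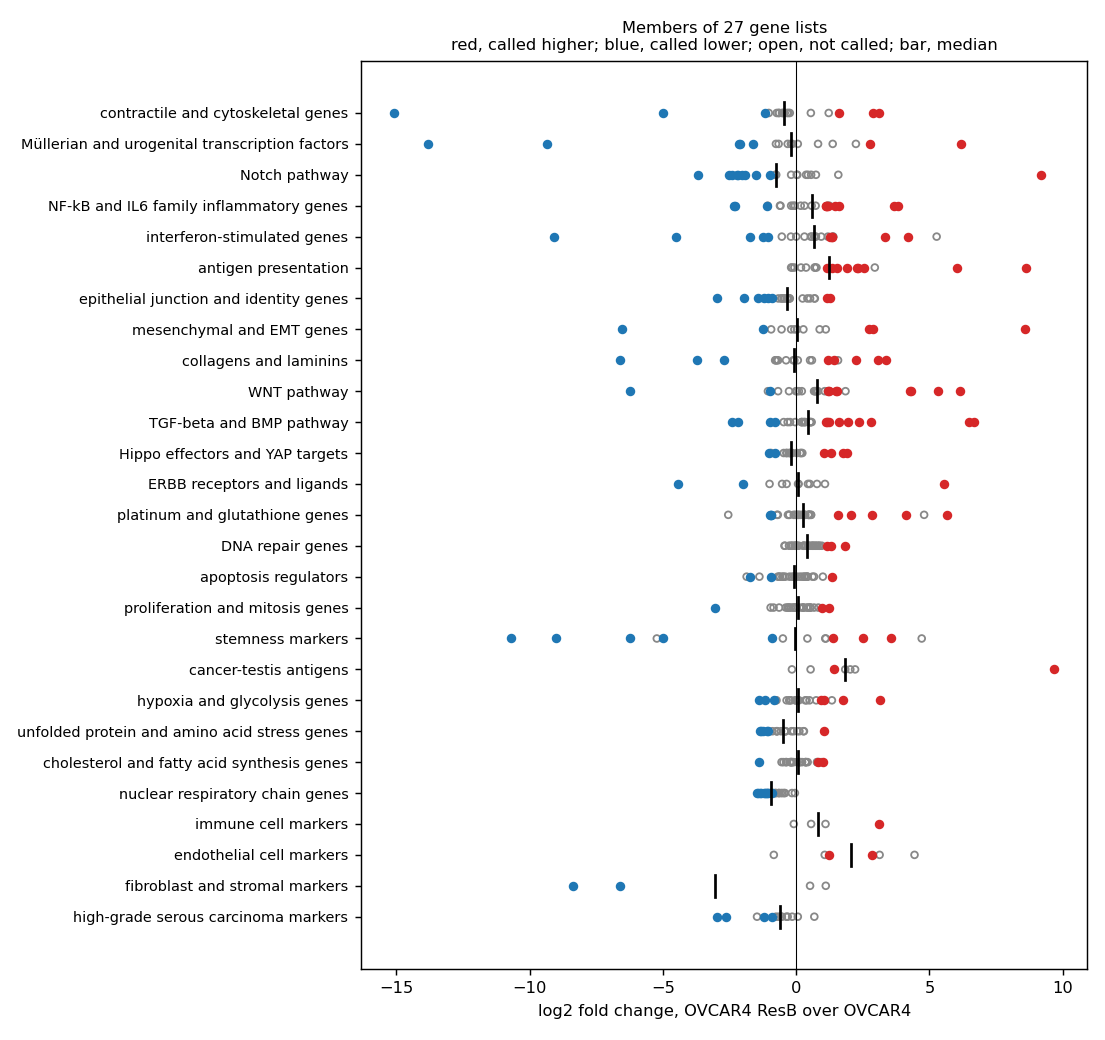
Log2 fold change (ResB over OVCAR4) of the tested members of each gene list, one point per gene and a bar at the list median. Red points were called higher, blue points lower and open points were not called. The antigen presentation row has 9 red and 0 blue points and the respiratory chain row 10 blue and 0 red points.

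Of hypoxia and glycolysis genes, 4 of 24 tested were higher and 3 lower (29.2% called, median 0.06; 16, 3 and 2 with one number left out). NDRG1, a stress-induced gene, rose from 15.2, 11.9 and 12.7 TPM to 64.5, 256 and 282 TPM (3.13 ± 0.41, adjusted p = 1.92e-12), and adrenomedullin ADM from 3.59-4.96 to 17.3-26.4 TPM (1.75 ± 0.47, adjusted p = 0.00211), whereas GAPDH fell from 4371, 5363 and 5234 TPM to 2100, 3128 and 3456 TPM (-1.39 ± 0.31, adjusted p = 0.000139; 0.119 and 0.128 without the libraries numbered 2 or 3). Genes of the unfolded protein response and amino acid stress gave 1 higher and 5 lower of 20 (30% called, median -0.50; 15, 1 and 0 with one number left out), among them the chaperone HSPA5, from 368-572 to 220-327 TPM (-1.34 ± 0.28), and asparagine synthetase ASNS, from 551-809 to 222-479 TPM (-1.33 ± 0.32). Without the libraries numbered 3 these calls were lost (0.122 and 0.196), and that of HSPA5 also without those numbered 2 (0.072). Cholesterol and fatty acid synthesis genes gave 2 higher and 1 lower of 24 (12.5% called, median 0.08, and 11, 1 and 0 with one number left out). Of 7 genes tested from a list of cancer-testis antigens and other MAGE-family genes, 2 were higher, MAGED4B and MAGED2. Both belong to the MAGED group, and no other member was called. This list had 28.6% called, and 3, 1 and 1 with one number left out. Its median was 1.84, or 1.28 with genes at 3 or fewer counts in a line entered as bounds. The call of MAGED2 was lost without the libraries numbered 2 or 3 (0.119 and 0.171). Of the marker lists, 4 of 14 carcinoma markers were lower and 0 higher, 1 of 4 immune, 2 of 6 endothelial and 0 of 4 stromal markers tested were higher and 0, 0 and 2 were lower. The stromal pair was LUM, at 0.793 to 2.78 TPM in OVCAR4 and 0 in ResB, and COL1A2, under 1 TPM in all libraries. LUM lost its call without the libraries numbered 1 (0.078) and COL1A2 without those numbered 2 or 3 (0.195 and 0.205). The carcinoma, immune, endothelial and stromal markers thus had 28.6%, 25%, 33.3% and 50% called and medians of -0.61, 0.83, 2.05 and -3.05. With genes at 3 or fewer counts in a line entered as bounds, the endothelial and stromal medians were 1.16 and -1.03. With the libraries numbered 1, 2 or 3 left out, the carcinoma markers called were 12, 2 and 2, the immune markers 2, 0 and 0, the endothelial markers 3, 0 and 0 and the stromal markers 1, 1 and 1. In TPM, medians that were below 0 in counts lay above 0 for the contractile (0.07), Müllerian (0.20), epithelial (0.22), collagen and laminin (0.61), Hippo (0.33), apoptosis (0.43), stemness (0.30), unfolded protein (0.06), carcinoma marker (0.03) and stromal (0.73) lists. The TPM median over genes with a mean TPM of at least 1 was 0.48. Among these lists, only the collagen and laminin list and the stromal list lay above it.

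Components of the ribosome and of the respiratory chain were lower. Of 24 nuclear-encoded respiratory chain genes tested, 10 were lower and 0 higher (41.7% called, median -0.93; 19, 1 and 0 with one number left out), and 7 of the 10 did not overlap. The median in TPM was -0.35, and the summed levels overlapped (9910 to 13191 against 7985 to 9952 TPM). SDHD of complex II fell from 327, 253 and 274 TPM to 142, 156 and 158 TPM (-1.47 ± 0.30, adjusted p = 1.84e-05; 0.0528 and 0.11 without the libraries numbered 2 or 3). The cytosolic ribosomal proteins, a group formed after their values were seen, gave 61 lower and 0 higher of 82 tested, 48 of them without overlap, at a median log2 fold change of -1.24 in counts and -0.65 in TPM. Their summed level was 248005, 202762 and 234835 TPM in OVCAR4 and 137358, 160661 and 157488 TPM in ResB. RPS18 fell from 7105, 7273 and 8090 TPM to 3949, 3754 and 3750 TPM (-1.59 ± 0.36, adjusted p = 0.000243), and RPL12 from 3438, 4174 and 4870 TPM to 1831, 1803 and 1911 TPM (-1.76 ± 0.38), with calls lost without the libraries numbered 2 (0.0928 and 0.0542) or 3 (0.151 and 0.0957). Of the 82, 10 and 3 were called without the libraries numbered 2 or 3. Mitochondrial ribosomal proteins gave 20 lower and 0 higher of 79 (52, 3 and 1 called with one number left out), but their summed levels overlapped (8133 to 11008 against 8164 to 9541 TPM) and their median in TPM was -0.08.

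Most members of these lower groups have short transcripts, and short transcripts as a whole were lower in ResB. With all tested genes divided into 5 equal bins by effective length, the median log2 fold change ran from -0.42 in the shortest bin through -0.20, -0.00 and 0.20 to 0.29 in the longest. In the shortest bin 13.6% of genes were called lower and 3.22% higher, and in the longest 6.92% lower and 16.1% higher. The shortest bin held 72 of the 82 cytosolic and 53 of the 79 mitochondrial ribosomal proteins and 13 of the 24 respiratory chain genes. The shift came with ResB replicates 2 and 3 (-0.54 and -0.58 in the shortest bin), and not with replicate 1 (-0.06), while the OVCAR4 libraries ranged from -0.18 to 0.14 there. The part of gene length in the lower level of ribosomal and respiratory chain genes was not tested. Between ResB and ResA the bin medians lay between -0.02 and 0.03.

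**Figure D4:**
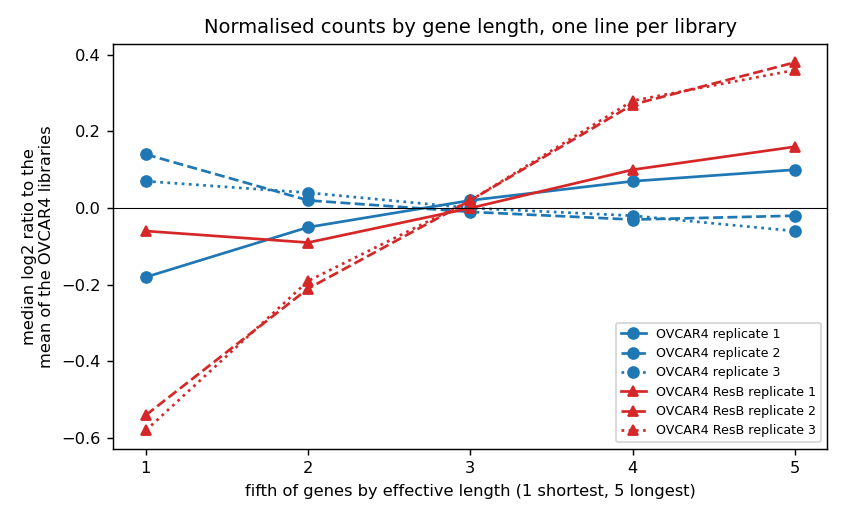
Median log2 ratio of normalised counts to the mean of the OVCAR4 libraries, per library, over 5 bins of tested genes from the shortest to the longest effective length. ResB replicates 2 and 3 run from -0.54 and -0.58 to 0.38 and 0.36, while ResB replicate 1 stays between -0.09 and 0.16.

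Genes of the X chromosome were higher in ResB as a group. Of 501 X-linked genes tested, 169 (33.7%) were higher and 19 (3.79%) lower (188 in all; 300, 45 and 39 with one number left out), against 8.63% and 9.21% of 14432 autosomal genes, and the median log2 fold change was 0.83 on the X chromosome and -0.02 on the autosomes. Measured in each library as the median of X-linked genes minus that of autosomal genes, relative to the OVCAR4 mean, the difference was 0.03, -0.01 and -0.01 in OVCAR4 and 0.93, 0.89 and 0.92 in ResB on the log2 scale. The 2 lines did not overlap (exact two-sided permutation p = 0.1, the smallest possible with 3 against 3), and ResB replicate 1, which stood apart in its profile, had a value close to those of the others. The X-linked genes lay above the autosomal ones in each of the 5 length bins, from 0.42 against -0.47 in the shortest to 1.22 against 0.28 in the longest, and the X-autosome difference ran from 0.64 to 0.96 over 22 settings of the analysis (0.85 as reported).

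The elevation extended along the chromosome, with medians between 0.45 and 1.21 in each of 8 consecutive intervals. Among the X-linked genes named above are MAGED4B, FGF13, KLF8, MSN, FLNA and ATP7A. The last of these rose to a similar level in ResA, and over the whole chromosome the median of ResB over ResA was 0.04, with ResA itself at 0.86 over OVCAR4. Of the autosomes, chromosome 17 had the highest median (0.46, 17.7% of 912 genes higher, BRCA1 among them), followed by chromosome 10 (0.27), and the lowest were chromosomes 19 (-0.36) and 9 (-0.31). Chromosome 17 was also higher in ResB than in ResA, with a median of 0.34 and 37.9% of genes higher, as were chromosomes 22 (0.29, 34.1%) and 7 (0.23, 32.5%), beside 16.2% of all genes.

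**Figure D5:**
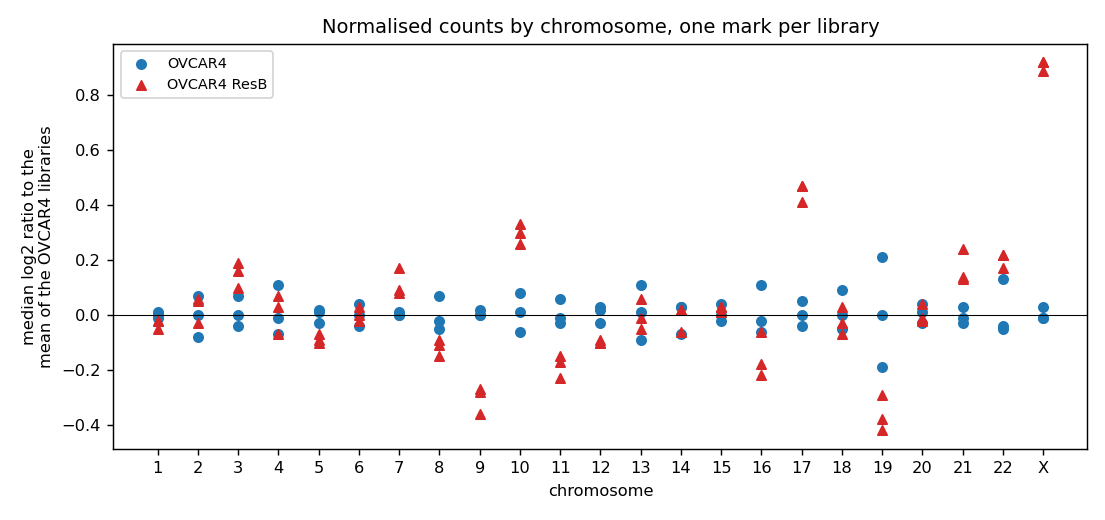
Median log2 ratio of normalised counts to the mean of the OVCAR4 libraries for the genes of each chromosome, one mark per library. On the X chromosome the 3 ResB libraries lie between 0.89 and 0.92 and those of OVCAR4 between -0.01 and 0.03, and chromosome 17 stands next.

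Some neighbouring genes with facing promoters were called together. Among 1211 pairs of genes on opposite strands with starts within 2000 bases, both genes were called in 38, and in 35 of these they changed in the same direction, 17 upward and 18 downward. Besides NR2F1 with NR2F1-AS1, COL4A1 with COL4A2 and TAP1 with PSMB9, these included BRCA1 with NBR1, whose starts are 82 bases apart, and PSMB8 with TAPSAR1. The calls of BRCA1, NBR1 and TAPSAR1 were lost without the libraries numbered 2 (adjusted p of 0.0561, 0.373 and 0.179) or 3 (0.0974, 0.536 and 0.159). Some of these pairs overlap, and without stated strand use their reads cannot be fully separated. A test of the pairs against pairs placed at random was not made. Of all genes tested, 17.9% were called, so the count of 38 pairs does not by itself show a link between neighbours.

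ResB and ResA, although both derived from OVCAR4 with cisplatin, differed from each other in 5218 of 15911 genes tested (32.8%), 2585 higher and 2633 lower in ResB. Without the replicate number in the model, 2094 genes were called. Among them were genes lost in ResB whose level in ResA was nearer to that of the parent. LGR5 was 17.1 to 18.8 TPM in ResA (-5.65 ± 0.26 for ResB over ResA), PROM1 18.8 to 27.7 TPM (-4.31 ± 0.18), ERBB4 8.33 to 15 TPM (-4.39 ± 0.23) and NOTCH3 23.1 to 39.6 TPM (-2.33 ± 0.13), with adjusted p between 1.09e-101 and 1.09e-73 for LGR5, ERBB4 and NOTCH3 and of 4.92e-120 for PROM1. Of the 20 Notch genes, 10 were lower and 1, HEY2, was higher in ResB than in ResA.

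Other changes went the same way in both resistant lines. CD44, ATP7A, APOL1 and CYR61 were raised in both by level, and their differences between the resistant lines did not pass the test (ResB over ResA of -0.55 ± 0.23, 0.05 ± 0.13, 0.22 ± 0.13 and -0.03 ± 0.10 on the log2 scale, adjusted p from 0.0513 to 0.867). A test not passed does not show equal levels, and the smallest of these adjusted p lay just above the threshold. INHBB rose further in ResA than in ResB (45.2 to 65.4 against 18.6 to 30.8 TPM, -1.26 ± 0.13, adjusted p = 7.87e-20). The 2 comparisons with OVCAR4 share the parental libraries, so that agreement between them is not independent.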

How the data were processed

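Poly(A)-selected mRNA was sequenced by the authors as one pool, and the authors used nf-core/rnaseq with GRCh38 and salmon; annotation release, strand setting and salmon version were not given in the sources used here. The estimated counts per gene deposited by the authors were not normalised, and 88.4% were whole numbers. The deposited TPM values divide these counts by effective gene length and scale each library to the same sum. Mitochondrial mRNAs were not analysed here.

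Libraries were grouped by the line and replicate number in their titles. Counts were rounded and fitted for 6 libraries at a time with DESeq2 1.42.0 (R 4.3.3) with replicate number as a block, as in the study's methods, and without a prior filter. Alternatives used edgeR 4.0.16 and limma 3.58.1 (log2 of TPM plus 1 or 0.1, mean TPM of at least 1 or no filter). The DESeq2 and edgeR tests were checked on simulated data. Same-numbered ResB and ResA libraries deviated together (r = 0.77, 0.58 and 0.61 between deviations from their line means), which those of ResB and OVCAR4 did not. Replicates 2 and 3 also deviated together across numbers (r = 0.69 for ResA 2 with ResB 3 and 0.50 for ResA 3 with ResB 2). The values thus set replicate 1 apart and do not show that numbers 2 and 3 are paired.

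Named were the 12 largest increases and decreases and the 8 largest TPM gains and losses among called, non-overlapping genes averaging 100 or more normalised counts, and up to 5 genes of each of 28 lists averaging 50 or more, with related genes by value. The members and lists were chosen with earlier results of these data known. A fold against a line with 3 or fewer counts in each library uses a floor of 3 counts per library. Such floors cover counting error only. Positions and 27305 promoters are from RefSeq GRCh38.p14. Some genes of the lists are counted but not reported here by name.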

Additional observations from a re-analysis of the deposited data

Results flagged for a closer look

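ResB and ResA were selected from the same parent with the same drug, and the test of the difference between them called 5218 genes (DESeq2, adjusted p under 0.05). Replicate 1 of ResB and of ResA stood apart from the other replicates of their lines, and with the libraries of one replicate number left out the count ran from 1847 to 4308. Whether the difference came with the separate selections or with drift of either line cannot be told apart.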

How the results depend on the processing

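The number of genes called in ResB against OVCAR4 (2853) became 4765 without the replicate block, 1365 with edgeR and the block, 5088 with all 9 OVCAR4-derived libraries in one fit, 6317 with mitochondrial rRNA share as a covariate, 276 and 322 with limma on TPM plus 1 or 0.1, and 0 without a TPM filter, where 4414 genes had an unadjusted p under 0.05. It ran from 631 to 7241 when one replicate number was left out, and from 2886 to 7592 when single libraries were left out without the block, 7592 being without ResB replicate 1. Chosen after seeing the data, the libraries under 10% mitochondrial rRNA gave 6556. Those libraries were OVCAR4 replicate 1 (5.18%) and ResB replicates 2 and 3 (2.47% and 2.39%). With OVCAR4 at a single library, the spread came from ResB alone, and no conclusion is drawn from that count. The libraries over 10% left ResB replicate 1 (13.1%) alone in its line in the same way. Same-numbered ResB and OVCAR4 libraries did not deviate together (r = -0.53, -0.35 and -0.03) and none correlated best with its own number, so the pairing rests on the number alone. For ResB against ResA (5218), 2094 genes were called without the block, 2262 with 9 libraries, and 1847 to 4308 with one replicate number left out. The difference in mitochondrial rRNA share (-4.67 percentage points) ran from -10.9 to -0.836 with one left out. No named gene changed direction under any setting. These genes were chosen as called and without overlap on both scales, so a change of direction was nearly excluded beforehand. Of the 128 named genes, 34 lost their call with edgeR and the block, 63 without the libraries numbered 2, 71 without those numbered 3 and, with limma on TPM plus 1 or 0.1, 84 and 77 of the 127 tested. Without a TPM filter all 128 did. For ResB against OVCAR4, the count filter, TMM factors and edgeR without the block kept the count within 1.5 times. Folds of single genes at 3 or fewer counts in a line are given as bounds, since the depth cannot tell such levels from 0. List medians use the fitted values unless bounds are named. The median of the antigen presentation list was 1.24 as fitted and 1.16 with bounds.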
